A study of Rattus norvegicus with 6 samples.

Results

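The let-7 family is a group of microRNAs that share one seed sequence. Its members were taken as the rows of the small RNA table whose gene symbol starts with Mirlet7 or let-7, together with the row Mir98. This gave 10 of 32883 genes, of which 9 passed the filter on low values (a mean of at least 5 normalized reads) and 1, Mirlet7f1, did not. Small RNAs had been sequenced from 6 clonal lines of INS-1(832/13)::mCherry cells, a rat insulinoma line that models the pancreatic β-cell. The cells carry a human insulin transgene, which per the study is largely silenced in Control line 16, and an mCherry tag on mouse Ins2 that marks insulin granules. All lines were grown at 7.5 mM glucose, and each gave 1 library. The Control group held lines 5-9, 2 and 16, and the PWS group, named after Prader-Willi syndrome, held lines 3, 19-1 and 19-4. Per the study, every line carries a deletion of the whole PWS domain on the maternal chromosome, where its imprinted genes are silent. The Control lines keep the active paternal copy, and in the PWS lines that copy is deleted as well. Line 5-9 is the parent of the other lines, lines 2 and 16 came from it after a control vector, and lines 19-1 and 19-4 were both subcloned from an edited line 19. The p-values below therefore measure the spread between related clonal lines.

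A let-7 hairpin is cut by Drosha and then by Dicer, and the short mature strand guides an Argonaute protein to messenger RNAs that pair with the seed. LIN28 proteins block this maturation in stem cells, and in differentiated tissues let-7 is typically abundant and holds down growth genes such as Hmga2, the Igf2bp genes, Ras genes and Myc. In metabolic tissues the family is known for its targets in insulin and insulin-like growth factor signalling.

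The mature sequences below show how little separates the members, which bears on how reads could be assigned to them. All 10 symbols were matched in the RefSeq tables of the GRCr8 assembly, by symbol or synonym. The guide strands (5p) are written 5′ to 3′ with the seed, bases 2 to 8, in capitals.
let-7a (Mirlet7a1): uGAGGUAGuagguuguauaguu
let-7f (Mirlet7f2): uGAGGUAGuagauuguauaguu
let-7c (Mirlet7c1 and Mirlet7c2): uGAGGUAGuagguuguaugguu
let-7b (Mirlet7b): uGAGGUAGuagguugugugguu
let-7d (Mirlet7d): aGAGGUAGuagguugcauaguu
let-7g (Mirlet7g): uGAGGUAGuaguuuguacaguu
let-7i (Mirlet7i): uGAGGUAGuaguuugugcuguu
miR-98 (Mir98): uGAGGUAGuaaguuguauuguu

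The seed was the same in 9 members, and these held 8 distinct mature sequences, each 22 bases long. Distinct sequences differed from each other at 1 to 6 positions. With positions counted from 1 at the 5′ end and the base of let-7a given first, let-7f differs by G12A, let-7c by A19G and let-7b by A17G and A19G. let-7d differs by U1A and U16C, let-7g by G12U and U18C, and miR-98 by G11A and A19U. let-7i is the farthest from let-7a among them, with G12U, A17G, U18C and A19U. All the bases that tell these members apart lie outside the seed.

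The genes lie in a few groups in GRCr8, and these positions are those of the RefSeq table, not of the deposited files. Mirlet7f2 (mature strand at chrX:24460052-24460073, plus strand) and Mir98 (chrX:24460663-24460684, plus strand) both lie within the gene Huwe1. Mirlet7c2 (chr7:118683636-118683657, plus strand) and Mirlet7b (chr7:118684044-118684065, plus strand) are neighbours and overlap no other annotated gene. Mirlet7a1 (chr17:16320145-16320166, plus strand) and Mirlet7d (chr17:16322273-16322294, plus strand) share an uncharacterised host gene. Mirlet7c1 (chr11:29688127-29688148, plus strand) lies in another uncharacterised gene and has Mir99a within 10 kb. Mirlet7g (chr8:115701026-115701047, plus strand) overlaps Wdr82 and Rpl29, and Mirlet7i (chr7:60527935-60527956, minus strand) overlaps an uncharacterised gene and has no other microRNA within 10 kb. Whether these positions are exonic or intronic in the host genes was not worked out here.

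The row Mirlet7f1 was nearly empty, with 1 read in line 5-9, 0 in line 2, 1 in line 16, 2 in line 3, 3 in line 19-1 and 0 in line 19-4. In RefSeq this symbol is a synonym of Mirlet7f-1, the hairpin on the minus strand (mature strand at chr17:16320508-16320527) opposite the let-7f-1 precursor, which RefSeq calls Mirlet7f-1os. Its mature strand is shown because its seed, in capitals, is not that of let-7.
miR-3596d (Mirlet7f-1): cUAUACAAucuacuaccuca
All 20 bases of it are found in the reverse complement of the 22 bases of let-7f. The rows Mir3596a and Mir3596c, named for other antisense strands of let-7 hairpins, had 0 reads in all 6 lines. The match of the row Mirlet7f1 rests on the RefSeq synonym alone, and in the annotation behind the deposited tables the row may instead be the sense let-7f-1 hairpin. The RefSeq hairpins let-7a-2 and let-7e were matched by no row under the rule and were not analysed here. let-7a and let-7f each have a second hairpin with the same mature sequence (let-7a-2 and let-7f-1), so the rows Mirlet7a1 and Mirlet7f2 may hold only some of the reads of let-7a and let-7f, or reads from both hairpins.

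The depth of the libraries was 7373691 to 16480475 reads. The labels were checked with Snord116, a snoRNA family of the deleted domain with 36 rows, which had 4251 to 10516 reads in the Control lines and 2 or 3 reads in the PWS lines. Of the 10 β-cell markers, all had reads, though Mafa had only 4, all of them in line 3. The β-cell microRNAs Mir375, Mir7a1 and Mir7a2 were at 558022 to 833397, 620377 to 1258260 and 623497 to 1264780 normalized reads. The insulin genes were low as messenger RNA fragments, with Ins2 at 0 to 30.1 normalized reads (0 in line 19-4) and Ins1 at 88.3 to 285 (88.3 in line 19-4). The log2 difference of Ins2 was -2.03 (unadjusted p = 0.015 and adjusted p = 0.727 in limma-trend). For Ins1 it was -0.61 (adjusted p = 0.860), and neither gene was called. The β-cell transcription factor gene Pdx1 was at 6.30 to 15.8, with close values in line 19-4 (15.8) and Control lines 2 (15.7) and 16 (15.4). Among markers of other cell types, the neuronal microRNA rows Mir124-1, Mir124-2 and Mir124-3 had the most reads, at 46.1 to 265 normalized reads. They were lowest in line 19-4, as were most let-7 genes, and summed to 383 to 777 in Control and 152 to 464 in PWS. Their log2 differences were -0.95, -0.91 and -0.75 (adjusted p = 0.815, 0.831 and 0.860 in limma-trend), with an unadjusted p under 0.05 for 2 of the 3, and their part in the let-7 values was not tested. The 3 rows are copies of one microRNA gene with near-equal reads (1014, 1041 and 1024 in all), so they are not 3 separate observations. The other markers were scarce, with Mir145 (smooth muscle and fibroblast) and Mir133b (muscle) at 0 in all lines, Mir206 (muscle) at 2 reads in all, Mir143 at 13.1 to 48.8 normalized reads and the blood microRNAs Mir142 at 43.1 to 75.1 and Mir223 at 4 reads in all.

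The let-7 family took a large share of the microRNA reads in these cells. Values are normalized reads, which are read counts divided by a factor for the size of each library and not by gene length. The family total was 1869450 in line 5-9, 1937190 in line 2 and 1600560 in line 16. Among the PWS lines it was 1519920 in line 3, 1870990 in line 19-1 and 1388700 in line 19-4. The 2 lowest totals were those of PWS lines 3 and 19-4, but line 19-1 lay above Control line 16 and the groups overlapped. The mean was 1802400 ± 178047 in Control and 1593200 ± 249359 in PWS (SD, n = 3 each), so the PWS mean was 88.4% of the Control mean. On the log2 scale the difference of the family total, PWS minus Control, was -0.18.

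As a share of all microRNA reads, let-7 made up 17.8% in line 5-9, 21.8% in line 2 and 16.9% in line 16. The share was 17.3% in line 3, 19.4% in line 19-1 and 16.1% in line 19-4. The mean was 18.8% ± 2.59 in Control and 17.6% ± 1.65 in PWS (SD, n = 3 each), a difference of -1.19 percentage points that lay within the spread of either group. Line 2 decided its sign: without it the difference was 0.28 percentage points. MicroRNA genes as a class took 89.3% ± 0.70 of all reads in Control and 89.3% ± 0.79 in PWS.

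Mirlet7f2 and Mirlet7i carried most of the family. Mirlet7f2, the let-7f gene on chromosome X, was at 660821 normalized reads in line 5-9, 635055 in line 2 and 547816 in line 16, against 502282 in line 3, 597436 in line 19-1 and 469427 in line 19-4. Mirlet7i, which has no microRNA neighbour, was at 527687 in line 5-9, 580126 in line 2 and 476862 in line 16, against 450704 in line 3, 594884 in line 19-1 and 456635 in line 19-4. Line 19-1 gave the highest Mirlet7i value of all 6 lines, while the other PWS lines gave the lowest. By mean level in Control, Mirlet7f2 ranked 5 and Mirlet7i ranked 7 among the microRNA genes. Together they made up 63.4% ± 0.66 of let-7 in Control and 64.4% ± 2.07 in PWS (SD, n = 3 each).

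The next 4 genes lay close together. Mirlet7a1, of the cluster with let-7d, was at 151438 normalized reads in line 5-9, 171840 in line 2 and 137001 in line 16, against 136415 in line 3, 172216 in line 19-1 and 134147 in line 19-4. Mirlet7b, the neighbour of Mirlet7c2, was at 126038 in line 5-9, 138963 in line 2 and 107689 in line 16, against 114366 in line 3, 135406 in line 19-1 and 91829 in line 19-4. For both genes the lowest line was 19-4, and the other PWS lines lay within or next to the range of the Control lines.

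With all 6 lines, the let-7c genes had the largest differences relative to their Control means. Mirlet7c1 was at 150681 normalized reads in line 5-9, 161008 in line 2 and 123913 in line 16, against 115417 in line 3, 138761 in line 19-1 and 87568 in line 19-4. Mirlet7c2 was at 150460 in line 5-9, 157666 in line 2 and 122673 in line 16, against 114771 in line 3, 138398 in line 19-1 and 87153 in line 19-4. PWS lines 3 and 19-4 lay below every Control line for both genes, whereas line 19-1 lay above Control line 16. The 2 genes lie on different chromosomes but share one mature sequence, and their ratio was 1.00 to 1.02 in every line, so they are not separate measurements of let-7c. Summed, let-7c was at 288801 ± 37595 in Control and 227356 ± 51278 in PWS (SD, n = 3 each), or 78.7% of the Control mean.

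Mirlet7d, Mirlet7g and Mir98 were the least abundant of the members tested. Mirlet7d was at 42416 normalized reads in line 5-9, 38719 in line 2 and 34435 in line 16, against 35822 in line 3, 38407 in line 19-1 and 25298 in line 19-4. Mirlet7g was at 41140 in line 5-9, 35161 in line 2 and 34574 in line 16, against 32682 in line 3, 35422 in line 19-1 and 22010 in line 19-4. For both genes line 19-4 stood apart below the other 5 lines. Mir98, the partner of Mirlet7f2 in Huwe1, was at 18772 in line 5-9, 18651 in line 2 and 15599 in line 16, against 17462 in line 3, 20058 in line 19-1 and 14632 in line 19-4. Its highest and lowest values were both those of PWS lines, the subclones 19-1 and 19-4.

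**Figure D1:**
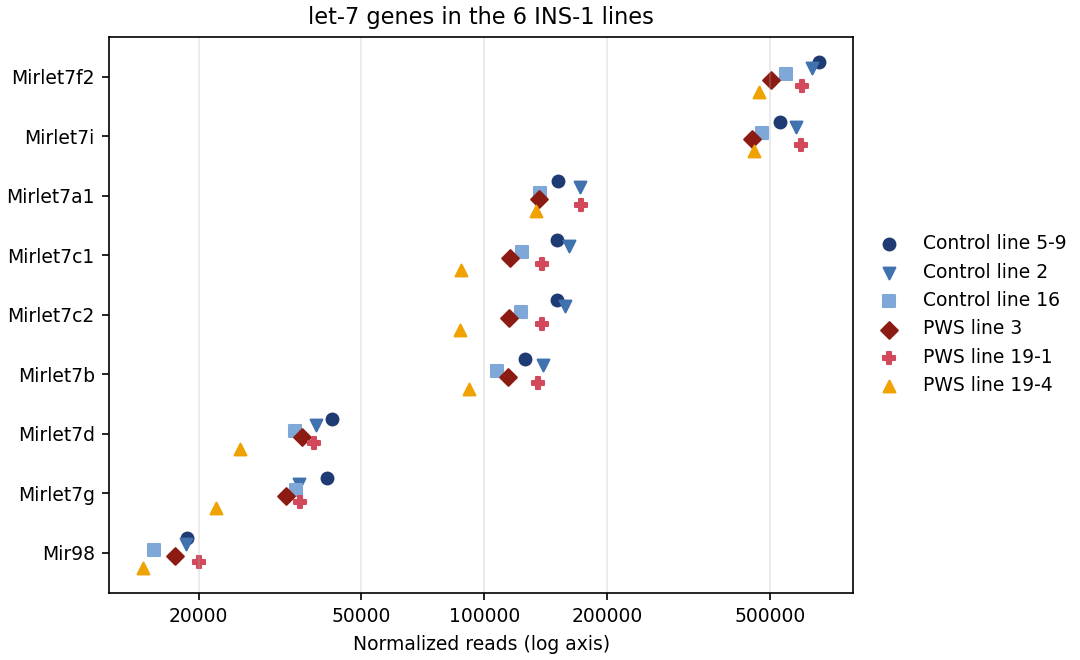
Normalized reads (log axis) of the 9 let-7 genes with enough reads to test, 1 point for each line, blue for Control and red or orange for PWS. The 2 most abundant genes lie at 450704 or above in every line, and PWS line 19-4 is the lowest line for 8 of the 9 genes.

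The order of the members was nearly the same in every line. Since the mature strand of each of these members has 22 bases, dividing by its length leaves this order unchanged. Reads were counted per hairpin gene, and hairpin lengths were not compared. Mirlet7f2 was above Mirlet7i in 6 of 6 lines, although the ranges of the genes across lines overlapped, and Mirlet7i was above Mirlet7a1 in 6 of 6. Mirlet7a1 was above Mirlet7c1 in 6 of 6 lines, Mirlet7c2 above Mirlet7b in 5 of 6, and Mirlet7d above Mirlet7g in 5 of 6. This order is by gene: summed over its 2 genes, let-7c was 1.30 to 1.99 times Mirlet7a1 in the 6 lines. Mirlet7b passed Mirlet7c2 in line 19-4 alone. Among Mirlet7a1, Mirlet7c1, Mirlet7c2 and Mirlet7b the steps between neighbours were smaller than the range of the Control lines. The steps from Mirlet7i to Mirlet7a1, from Mirlet7b to Mirlet7d and from Mirlet7g to Mir98 were larger than that range, with no overlap between lines.

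No let-7 gene differed between genotypes in the test across all genes. The test was limma-trend on log2(normalized reads + 1), with Benjamini-Hochberg adjustment over 4292 genes and a gene called at an adjusted p under 0.1. None of the 9 members was called, against a background of 1.28% (55 genes) across the table. With all 6 lines none reached an unadjusted p under 0.05 either, and edgeR and DESeq2 on the recovered reads likewise called 0 members. The estimates were below 0 for 9 of 9 members, with a median log2 difference of -0.23. Over all tested genes the median was 0.0048 and 49.7% were below 0, and over the 259 tested microRNA genes the median was -0.14 and 69.5% were below 0. The members share libraries, some share loci or a mature sequence, and so their common sign is not 9 separate observations.

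The size of the difference varied by member. With all 6 lines it was largest for let-7c, with a log2 difference of -0.37 for Mirlet7c1 (SE 0.21, 95% interval -0.82 to 0.09, adjusted p = 0.860) and -0.36 for Mirlet7c2 (SE 0.21, interval -0.81 to 0.10, adjusted p = 0.860). Mirlet7g followed with -0.32 (SE 0.22, interval -0.80 to 0.15, adjusted p = 0.873), and was the largest without line 2 (-0.36) or without line 3 (-0.40). Mirlet7f2 was at -0.24 (SE 0.19, interval -0.63 to 0.16, adjusted p = 0.886) and Mirlet7d at -0.23 (SE 0.22, interval -0.69 to 0.23, adjusted p = 0.889). The intervals of these 5 genes include 0 and reach to -0.63 or below. Mirlet7b had -0.14 (SE 0.21, interval -0.58 to 0.30, adjusted p = 0.933) and Mirlet7i -0.08 (SE 0.19, interval -0.49 to 0.32, adjusted p = 0.956). Nearest to 0 were Mirlet7a1 with -0.06 (SE 0.20, interval -0.48 to 0.36, adjusted p = 0.973) and Mir98 with -0.03 (SE 0.21, interval -0.48 to 0.42, adjusted p = 0.986). For Mirlet7a1, Mirlet7i and Mir98 the sign turned when libraries were scaled by their total reads instead. Leaving out line 19-4 turned the sign for Mirlet7a1, Mirlet7b and Mir98 and brought the family total to -0.09. Leaving out Control line 2 also turned it for Mirlet7a1 and Mir98, and leaving out Control line 5-9 for Mir98. Leaving out line 19-1 moved the members the opposite way from leaving out line 19-4. Between the fits without line 19-1 and without line 19-4, Mirlet7c1 ran from -0.52 to -0.19, Mirlet7c2 from -0.51 to -0.18, Mirlet7g from -0.46 to -0.11, Mirlet7d from -0.35 to -0.049, Mirlet7f2 from -0.34 to -0.16 and Mirlet7i from -0.21 to -0.02. Without line 19-1, both let-7c genes reached an unadjusted p under 0.05 in limma-trend (0.030 for Mirlet7c1 and 0.032 for Mirlet7c2), with an adjusted p of 0.903 for both.

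**Figure D2:**
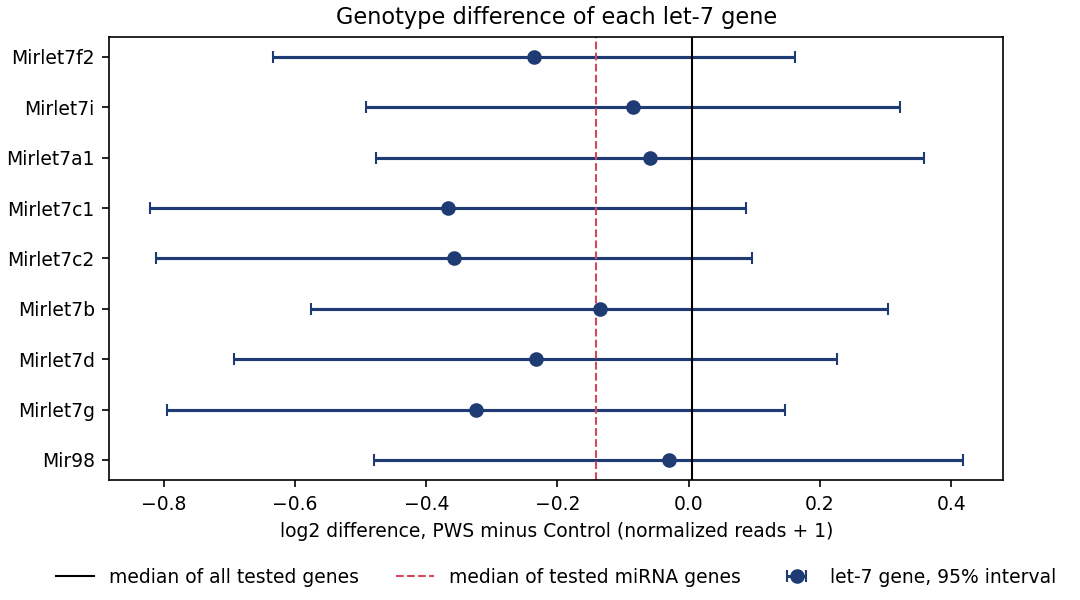
Log2 difference, PWS minus Control, of each let-7 gene with its 95% interval from limma-trend, beside the median of all tested genes (solid line) and of tested microRNA genes (dashed line). All 9 points lie below 0 and all 9 intervals include 0.

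Counting error does not set this precision. The fewest reads behind any tested value were 11099, for Mir98 in line 19-4, for which counting alone gives an error of 0.95%. For Mirlet7f2 the fewest were 356075 reads and the counting error was 0.17%. The lines of one group differed far more than this: the highest Control line exceeded the lowest by a factor of 1.19 (Mirlet7g) to 1.30 (Mirlet7c1).

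The subclones 19-1 and 19-4, which come from one edited line, differed from each other more than the Control lines did. The ratio of line 19-1 to line 19-4 was 1.61 for Mirlet7g, 1.59 for Mirlet7c2, 1.58 for Mirlet7c1 and 1.52 for Mirlet7d. It was smaller for Mirlet7b at 1.47, Mir98 at 1.37, Mirlet7i at 1.30, Mirlet7a1 at 1.28 and Mirlet7f2 at 1.27. Relative to the Control mean, the members in line 19-4 ranged from -0.75 (Mirlet7g) to -0.19 (Mirlet7a1) on the log2 scale. In line 19-1 they ranged from -0.07 (Mirlet7c1) to 0.18 (Mir98), and in line 3 from -0.33 (Mirlet7c1) to -0.02 (Mir98). All 9 members were below their Control mean in lines 3 and 19-4, and 5 were in line 19-1. Control line 16 also had all 9 below that mean, from -0.23 (Mirlet7c1) to -0.10 (Mirlet7g). Line 19-4 was the shallowest library, with 7373691 reads. Control line 2 was nearly as shallow, with 7634142 reads, and had the highest let-7 total of the 6 lines. A relation of depth to the let-7 values was not tested.

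**Figure D3:**
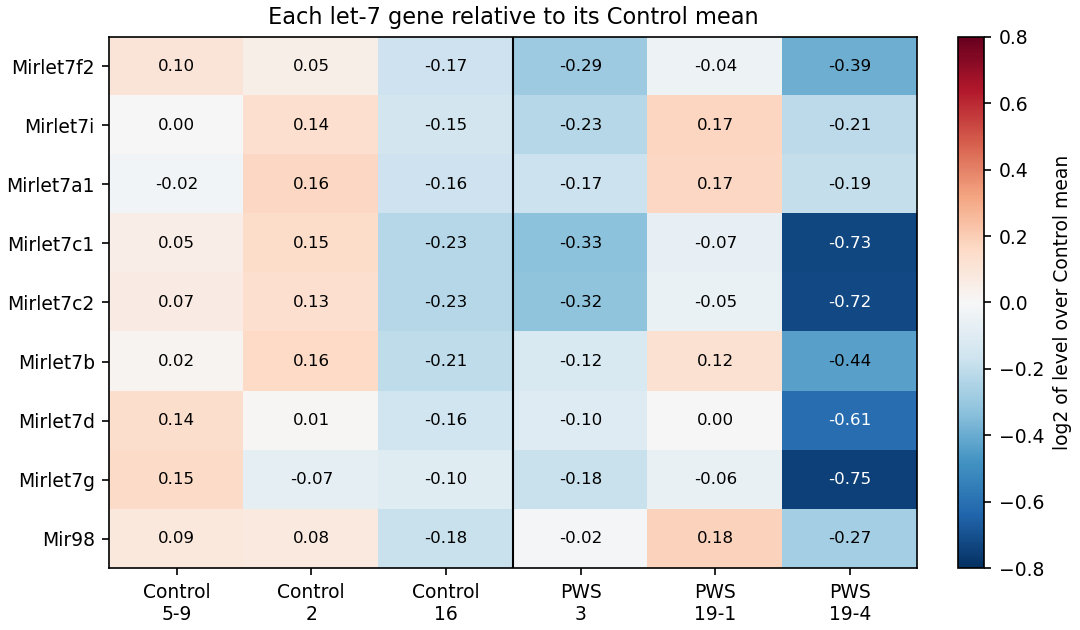
Each let-7 gene in each line as the log2 of its level over its own Control mean, with Control lines left and PWS lines right of the black line. In line 19-4 the values run from -0.75 for Mirlet7g to -0.19 for Mirlet7a1, and line 19-1, from the same edited line, has values from -0.07 to 0.18.

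The make-up of the family was compared by shares, which do not depend on how libraries are scaled. Mirlet7f2 held 34.1% ± 1.29 of let-7 reads in Control and 32.9% ± 0.94 in PWS (SD, n = 3 each, as for the shares that follow). Mirlet7i held 29.3% ± 0.95 in Control and 31.4% ± 1.64 in PWS, the largest difference in share, at 2.12 percentage points. The groups overlapped for both. Without line 19-4 the difference was 1.40 percentage points for Mirlet7i and -1.63 for Mirlet7f2, so which of them was the larger rested on that line. The difference for Mirlet7i was 3.02 without line 3. The difference for Mirlet7f2 was -0.58 without line 5-9, -0.69 without line 19-1 and -1.86 without line 2.

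The groups did not overlap for 4 of the 9 shares. For comparison, when each of the 109 other microRNA genes at a mean of 1000 normalized reads or more was divided by the let-7 total, groups did not overlap for 16.5% of them. Mirlet7a1 held 8.10%, 8.87% and 8.56% in lines 5-9, 2 and 16, and 8.98%, 9.20% and 9.66% in lines 3, 19-1 and 19-4. Mirlet7c1 held 8.06%, 8.31% and 7.74% in the Control lines and 7.59%, 7.42% and 6.31% in the PWS lines in the same order. The share of Mirlet7a1 was thus higher in every PWS line than in any Control line, and that of Mirlet7c1 lower. Mirlet7c2 held 7.95% ± 0.25 in Control and 7.07% ± 0.70 in PWS, and Mir98 held 0.98% ± 0.02 and 1.09% ± 0.05. Taken as one mature sequence, let-7c held 16.1%, 16.5% and 15.4% in the Control lines and 15.1%, 14.8% and 12.6% in the PWS lines. The other shares overlapped. Mirlet7b held 6.88% ± 0.25 in Control and 7.12% ± 0.47 in PWS, Mirlet7d 2.14% ± 0.14 and 2.08% ± 0.27, and Mirlet7g 2.06% ± 0.21 and 1.88% ± 0.28. Shares of one total are tied to each other, so these 4 are not independent. The size of the differences in share, PWS minus Control, moved with single lines, mostly with line 3 and line 19-4. For Mirlet7c1 it was -0.93 percentage points, -1.18 without line 3 and -0.53 without line 19-4, and for Mirlet7c2 it was -0.88, -1.11 and -0.48 in the same order. For Mirlet7b it was 0.24, 0.044 without line 3 and 0.50 without line 19-4. For Mirlet7g it was -0.18, -0.32 and -0.037, and for Mirlet7d -0.063, -0.20 and 0.065, in the same order. The direction held for Mirlet7c1, Mirlet7c2, Mirlet7b and Mirlet7g and not for Mirlet7d.

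**Figure D4:**
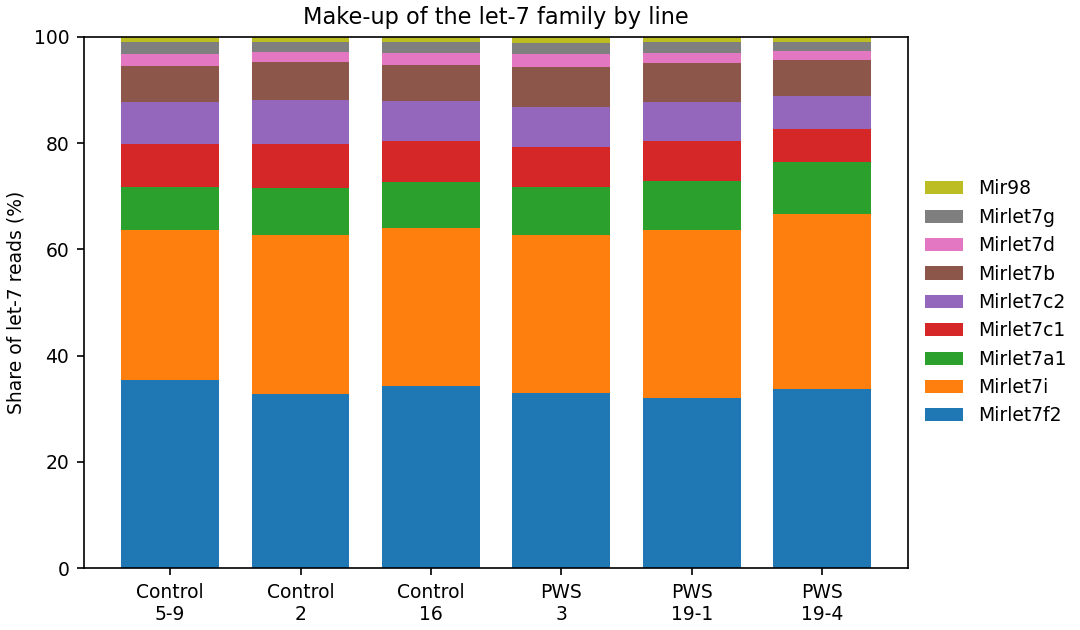
Share of all let-7 reads (percent) taken by each gene in each line, stacked to 100%. Mirlet7f2 and Mirlet7i take 62.7% to 66.7% of every line, and the bands of Mirlet7c1 and Mirlet7c2 are narrowest in PWS line 19-4.

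Ratios between members, chosen after the levels were seen and given without a test, showed where the shares moved apart. With 3 lines against 3, an exact permutation test could not give a p below 0.1. The ratio of let-7c (both genes) to Mirlet7a1, whose mature strands differ by A19G alone, was 1.99 in line 5-9, 1.85 in line 2 and 1.80 in line 16. It was 1.69 in line 3, 1.61 in line 19-1 and 1.30 in line 19-4, so every PWS line lay below every Control line. The groups did not overlap with line 19-4 set aside either. The ratio of Mirlet7b to its neighbour Mirlet7c2 was 0.84, 0.88 and 0.88 in the Control lines and 1.00, 0.98 and 1.05 in the PWS lines. The ratio of Mirlet7f2 to Mir98, both within Huwe1, was 35.2, 34.0 and 35.1 in the Control lines and 28.8, 29.8 and 32.1 in the PWS lines. The ratio of Mirlet7d to Mirlet7a1, also neighbours, was 0.28, 0.23 and 0.25 in the Control lines and 0.26, 0.22 and 0.19 in the PWS lines, and its groups overlapped. The ratio of Mirlet7f2 to Mirlet7i was 1.25, 1.09 and 1.15 in Control and 1.11, 1.00 and 1.03 in PWS, and its groups overlapped.

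With let-7c summed, the groups did not overlap for 8 of the 28 ratios between members, and each of 7 of these held let-7c or Mir98. For comparison, groups did not overlap for 16.5% of the 6903 ratios between any of the 118 microRNA genes at that level, members included. For levels, groups overlapped for all 9 members, while 11.2% of all tested genes had groups that did not overlap.

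**Figure D5:**
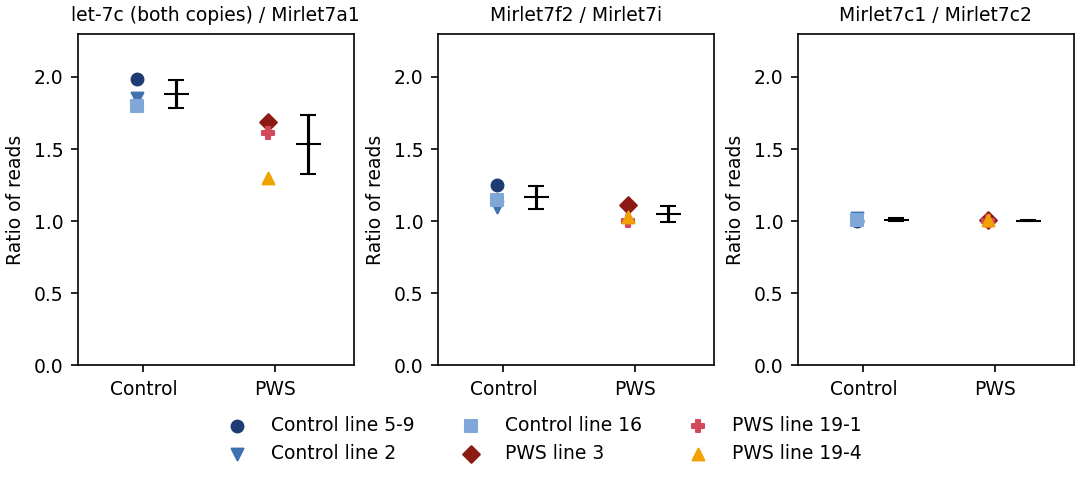
Ratio of let-7c (both genes) to Mirlet7a1, of Mirlet7f2 to Mirlet7i and of Mirlet7c1 to Mirlet7c2 in each line, with the mean and SD of each group (n = 3 lines) as bars. The first ratio is 1.80 to 1.99 in Control lines and 1.30 to 1.69 in PWS lines, and the last stays at 1.00 to 1.02 in all lines.

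MicroRNAs that are transcribed with let-7 genes in some clusters were described next, and none of the 5 with a row was called. Mir99a, the neighbour of Mirlet7c1, was at 517, 302 and 428 normalized reads in lines 5-9, 2 and 16 and at 655, 755 and 538 in lines 3, 19-1 and 19-4. Its log2 difference was 0.66 (SE 0.28, adjusted p = 0.831), opposite in sign to the -0.37 of Mirlet7c1. Groups did not overlap for 3 of the 5, against 11.2% of all tested genes: Mir99a was higher in the PWS lines, and Mir125a and Mir100 were lower. Mir125a was the most abundant of the 5, with 101528, 121136 and 102999 normalized reads in Control and 96404, 97684 and 54752 in PWS, and a log2 difference of -0.43 (SE 0.23, adjusted p = 0.848). Its lowest line was 19-4. Of the 5, only Mir99a lies within 10 kb of an analysed let-7 gene in GRCr8. Mir99b had a log2 difference of -0.04 (SE 0.19, adjusted p = 0.979) and Mir125b1 one of -0.34 (SE 0.29, adjusted p = 0.887). Mir100 was low, at 5.94 to 18.3 normalized reads. The median of the 5 differences was -0.34, beside 0.0048 over all tested genes and -0.14 over tested microRNA genes. An unadjusted p under 0.05 was reached by 2 of the 5 (Mir99a and Mir100), by 256 of the 4292 tested genes and by 40 of the 259 tested microRNA genes.

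The microRNA genes whose profile over the 6 lines was most like the let-7 total were Mir342, Mir30d, Mir324, Mir30e and Mir129-2. Likeness was the root mean square difference of the centred log2 profiles, which was 0.09 for Mir342 and 0.11 for Mir129-2, against a median of 0.28 over 109 candidates. Mir342 was at 51109, 49343 and 46443 normalized reads in Control lines and 45528, 51959 and 35193 in PWS lines. Like the let-7 total, Mir342 was lowest in line 19-4 and did not separate the genotypes. Since it was picked for its likeness over these same lines, this is not a separate observation.

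Genes that make or turn over let-7 could be read only as fragments of their messenger RNA, which small RNA libraries hold in low and unrepresentative amounts. Of 22 such genes with a row, 8 were tested and 0 were called, with 0 at an unadjusted p under 0.05 in limma-trend. Their median log2 difference was 0.08, beside 0.0048 over all tested genes. Lin28a and Lin28b, the inhibitors of let-7 maturation, and Trim71, a let-7 target that acts on messenger RNAs, had 0 reads in all 6 lines. The most abundant was Dgcr8, the partner of Drosha, whose transcript itself holds a hairpin that Drosha cuts. It was at 481, 669 and 544 normalized reads in Control and 484, 527 and 740 in PWS, with a log2 difference of 0.04 (SE 0.27, adjusted p = 0.986). The RNA helicase Ddx5 had a log2 difference of -0.36 (SE 0.33, adjusted p = 0.889), and the RNA-binding protein gene Hnrnpa1 one of -0.33 (SE 0.36, adjusted p = 0.898).

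Known let-7 targets were likewise near the floor. Of 24 with a row, 5 were tested and 0 were called, also with 0 at an unadjusted p under 0.05 in limma-trend, and the median log2 difference was -0.06. Hmga2, Igf2bp1, Igf2bp2, Cdk6, Lin28b and Trim71 had 0 reads in all lines. The transcription factor gene Myc was at 51.2, 58.8 and 52.5 normalized reads in Control and 58.2, 42.0 and 92.3 in PWS, with a log2 difference of 0.17 (SE 0.34, adjusted p = 0.950). Its highest value was in line 19-4. Irs2, an adaptor of insulin signalling, had a log2 difference of -0.07 (SE 0.34, adjusted p = 0.982), and the cell cycle phosphatase gene Cdc25a one of -0.06 (SE 0.36, adjusted p = 0.984). At these levels a change of the target messenger RNAs was not detectable.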

How the data were processed

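Per the study's methods and the submitters' processing notes, the authors made small RNA libraries with a microRNA kit carrying unique molecular identifiers and a widened size selection, collapsed duplicates with UMI-tools 1.0.0, trimmed with cutadapt 1.18, aligned with Bowtie2 2.3.4.2 to Rnor_6.0 with a custom annotation, counted with HTSeq 0.11.2 and compared genotypes with DESeq2. The notes also list featureCounts. The deposited values are a signal in normalized reads, which are counts the authors divided by a size factor per library. The reads behind 100% of values came out whole (tolerance 0.001). The table in which a read of several genes was added to each is the main one. For all 10 let-7 genes the reads were equal in the table that leaves such reads out. Counts are per hairpin gene, so arms and isomiRs were not separated, and reads of near-identical mature strands may have been placed at another hairpin. The deposited tables also hold the authors' own comparison (mean, log2 fold change with its error, raw and adjusted p-values), which was taken no further.

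The members and gene lists were chosen with earlier results of these data known. The test was limma-trend (limma 3.58.1, R 4.3.3) on log2(normalized reads + 1), for which a gene needed a mean of 5 or more. It had genotype as the sole term, Benjamini-Hochberg adjustment over 4292 genes and a threshold of 0.1. On the recovered reads, edgeR 4.0.16 (quasi-likelihood) called 58 genes and DESeq2 1.42.0 called 58, against 55 with limma-trend. Intervals are 95%. Totals, shares and ratios were described without a test. The text names every member, the 5 microRNA genes (mean of at least 1000) most like the let-7 total, and, from the lists of cluster microRNAs, processing genes and targets, the called genes and the 3 with the highest mean; other genes and the markers named were chosen after their values were seen. Symbols were matched ignoring case and hyphens, and Mir93, which would match Mir9-3 in this way, was left out. The alternatives were other pseudocounts, filters, scalings, tests, the second table, a stricter threshold (0.05), a replicate block, subclones 19-1 and 19-4 averaged, and each line left out in turn. Scripts were tested on simulated data.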

Additional observations from a re-analysis of the deposited data

How the results depend on the processing

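No let-7 gene was called under any of 21 alternatives, and the count of genes called across the table stayed between 41 and 66 (44 to 58 with a line left out). Of 316 values recomputed, 13 changed sign: 9 log2 differences of members and 4 differences in share. With libraries scaled by total reads, the log2 difference was 0.037 for Mirlet7a1, 0.011 for Mirlet7i and 0.065 for Mir98, and this scaling moved the median of all genes to 0.10. With 1 line left out, it ran from -0.18 to 0.026 for Mirlet7a1, from -0.27 to 0.010 for Mirlet7b and from -0.14 to 0.088 for Mir98. The family total ran from -0.31 (without line 19-1) to -0.09 (without line 19-4 or with scaling by total reads), and the share of microRNA reads from -2.16 percentage points (without line 16) to 0.28 (without line 2). The difference in the share of Mirlet7d, at -0.063 percentage points, was 0.0020 without line 5-9, 0.065 without line 19-4 and 0.016 with the subclones averaged. Averaging the subclones 19-1 and 19-4 gave -0.34 for Mirlet7c1 and -0.19 for the family total.

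The deviations of same-numbered lines correlated at 0.41, 0.22 and -0.06 over 1087 genes. Differently numbered lines were not compared, so whether the replicate numbers pair the lines was not settled. A replicate block gave 56 called genes in place of 55, left let-7 members called at 0, and the log2 difference of Mirlet7c1 was -0.37. With 3 lines a group, of which 2 PWS lines are subclones, the intervals of single members reach from -0.82 (Mirlet7c1) to 0.42 (Mir98) on the log2 scale, and differences inside them were not detectable. Reads do not limit this precision, since every tested member had at least 11099 in each line.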
